A study of Mus musculus with 12 samples.

Results

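Csf1, Lif, Hbegf and Nfkbia were followed through MC3T3-E1 cells under fluid flow: 3 genes of secreted signals and the gene of an inhibitor of the transcription factor NF-kB. All probes with 1 of these 4 symbols in the platform annotation were taken, whether or not they had values. They were 7 of the 28704 features on the array: 2 for Csf1, 1 for Lif, 1 for Hbegf and 3 for Nfkbia. In all 4 of 10225 genes with a symbol on the array were followed. The genes were selected on their measured difference between the flow and static samples, so that difference is described below without a test.

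MC3T3-E1 is a clonal osteoblast-like line from mouse calvaria, and no label tells the 2 groups apart by clone or passage. The shear group was 6 samples of confluent monolayers on glass, grown with 5% serum and exposed for 5 h to pulsatile flow at 1 Hz. The flow chamber gave an average shear stress of 5 dyn/cm2, with 1% serum in the circulating medium. The control group was 6 samples of the same line held static in the same set-up, with no treatment or genotype of their own. The serum, 5% in growth and 1% afterwards, is given alike for both groups. Total RNA was labelled with Cy5 (replicates 1, 3 and 5) or Cy3 (replicates 2, 4 and 6), and each array was inferred to carry an odd replicate of a group beside the even one that follows it. The labels do not say whether the samples were separate cultures, so the spread between them may be technical.

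Csf1 encodes macrophage colony-stimulating factor, the ligand of the receptor Csf1r. Osteoblasts release it, and precursors of macrophages and osteoclasts need it to survive and divide. Lif encodes leukaemia inhibitory factor, a cytokine of the interleukin-6 family that signals through Lifr and gp130 (Il6st) to the kinase Jak1 and the transcription factor Stat3. Hbegf encodes heparin-binding EGF-like growth factor, a membrane-anchored ligand of the EGF receptor that metalloproteinases shed from the cell surface. Nfkbia encodes IkB-alpha, which holds NF-kB in the cytoplasm until it is phosphorylated and degraded. NF-kB in turn induces Nfkbia, which closes a negative feedback loop.

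The promoter table used here, from RefSeq on the build GRCm38.p6, held 3 of the 4 genes. The 250 bases before the annotated start are shown as background. The genes were selected on their difference between the groups, so a shared direction says nothing of shared control. Capitals mark matches, on either strand, to GGACTTTCC or to GGG followed by any 2 bases and TTTCC, both forms of the NF-kB site, or to TGANTCA, the AP-1 site. The motifs were chosen with these windows in view.
Csf1, chr3:107760470-107760719, minus strand: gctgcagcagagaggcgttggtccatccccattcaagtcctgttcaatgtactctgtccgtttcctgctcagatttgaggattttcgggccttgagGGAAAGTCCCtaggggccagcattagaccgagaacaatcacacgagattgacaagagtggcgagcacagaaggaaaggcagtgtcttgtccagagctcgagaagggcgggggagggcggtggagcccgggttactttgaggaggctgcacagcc
Lif, chr11:4257318-4257567, plus strand: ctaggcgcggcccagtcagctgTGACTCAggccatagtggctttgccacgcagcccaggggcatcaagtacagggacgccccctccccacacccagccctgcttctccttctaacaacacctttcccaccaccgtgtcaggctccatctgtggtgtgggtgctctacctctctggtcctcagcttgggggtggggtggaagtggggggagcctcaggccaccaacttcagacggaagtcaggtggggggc
Nfkbia, chr12:55492648-55492897, minus strand: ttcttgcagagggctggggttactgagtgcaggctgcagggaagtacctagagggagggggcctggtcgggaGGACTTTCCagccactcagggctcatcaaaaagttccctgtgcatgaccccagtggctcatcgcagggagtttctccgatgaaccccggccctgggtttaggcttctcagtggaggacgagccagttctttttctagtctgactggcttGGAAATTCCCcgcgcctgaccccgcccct

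In the Csf1 window 1 stretch, from base -154 to -145 counted from the start, matched both NF-kB forms on the opposite strand. The Nfkbia window held GGACTTTCC from -178 to -170 on the strand of the gene. It held a second match, to the form with 2 free bases, from -29 to -20 on the opposite strand. The Lif window matched TGANTCA once, from -228 to -222, and neither NF-kB form. The cAMP response element TGACGTCA was found in none of these windows. Of 32851 promoter windows of this length, 1.41% held the NF-kB form with 2 free bases, 0.283% GGACTTTCC, 6.75% TGANTCA and 1.55% TGACGTCA. A match describes letters and is no evidence that a factor was bound in these cells.

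Each deposited value is the log2 of a spot's net fluorescence over the median of its block of 598 features in the same sample, so 0 is the block median. Of the 7 probes, 6 had a value in at least 1 sample, 4 of them in all 12 samples. Nfkbia probe 22771 had no value in any sample. To enter the fit, a feature needed 4 or more measured samples in the shear group and as many in the control group, which 5 probes of the 4 genes had. Hbegf did not, since it had no control value. A change is the log2 signal in shear minus that in control samples. Its standard error (SE) comes from limma, a linear model fitted to all 21883 features that met the filter.

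Csf1 had the widest distance between the groups among the 3 genes with values in both. Probe 24107 gave log2 signals of 5.98, 5.27, 5.87, 5.87, 4.90 and 4.90 in shear replicates 1 to 6. In control replicates 1 to 6 it gave 3.28, 3.14, 3.15, 2.67, 3.57 and 3.93. All shear values lay above all control values, with 0.97 between the lowest shear and the highest control sample. The means were 5.47 ± 0.50 in shear and 3.29 ± 0.43 in control samples (SD, n = 6 each). The log2 change was 2.18 ± 0.35 (SE), or 4.52-fold.

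The second Csf1 probe, 20112, lay higher under shear as well. It gave 4.73, 4.21, 4.77, 5.32, 4.79 and 4.40 in shear replicates 1 to 6, against 2.63, 2.05, 2.32, 2.22, 2.18 and 2.48 in control replicates 1 to 6. The groups were 1.58 apart at their nearest samples. The change was 2.39 ± 0.35 (SE), or 5.23-fold, so the 2 probes differed by less than either SE. Among all features fitted, 58 had a change at or above that of probe 24107 and 32 at or above that of probe 20112.

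Some Csf1 spots were among the brighter ones of their samples. Net fluorescence of probe 24107 was 6487 to 51608 in shear and 1972 to 4877 in control samples. In shear replicate 4 it reached 79.0% of the brightest spot of that sample, and probe 20112 reached 72.9%. Whether bright spots were compressed was not tested. The shear array of replicates 5 and 6 was the lowest for probe 24107, with a mean of 4.90, against 5.63 and 5.87 on the other shear arrays. For probe 20112 the same array was at 4.59, between the others at 4.47 and 5.04.

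**Figure D1:**
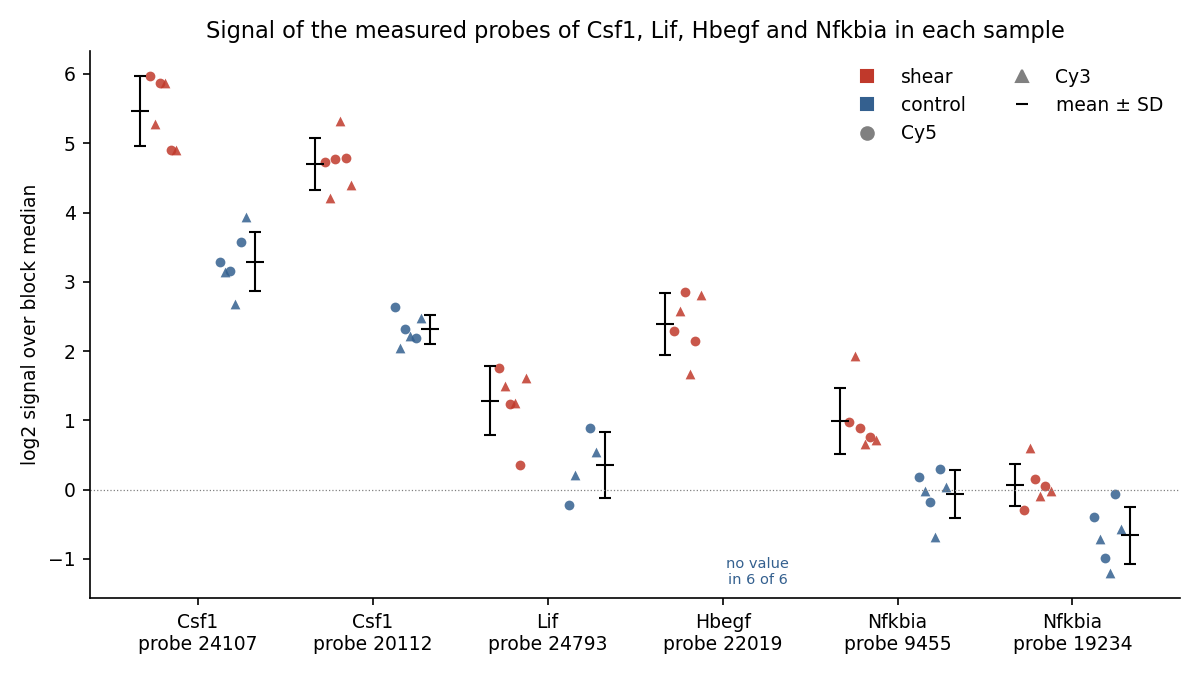
Log2 signal over block median (y axis) of the 6 probes with values (x axis), in shear (red, left) and control (blue, right) samples, with circles for Cy5, triangles for Cy3 and black bars for the mean ± SD. Both Csf1 probes and Nfkbia probe 9455 have every shear sample above every control sample, Lif and Nfkbia probe 19234 overlap, and Hbegf has no control value.

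Lif, the gp130 cytokine, was nearer to the block medians and its groups overlapped. Its probe 24793 gave 1.75, 1.49, 1.23, 1.25, 0.35 and 1.61 in shear replicates 1 to 6. It gave -0.23, 0.22, 0.89 and 0.54 in control replicates 1, 2, 5 and 6. Control replicates 3 and 4, which shared the array with the fewest measured features, had no value. Shear replicate 5 lay below 2 of the 4 control values. The means were 1.28 ± 0.50 (SD, n = 6) in shear and 0.35 ± 0.47 (n = 4) in control samples, and the log2 change was 0.93 ± 0.51 (SE), or 1.90-fold. Among all features fitted, 1170 had a change at or above it.

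For Lif the 2 shear samples of 1 array disagreed more than the array means did. Cy5 minus Cy3 was -1.26 on the array of shear replicates 5 and 6, against 0.26 and -0.02 on the other shear arrays. The array means were 1.62, 1.24 and 0.98 in shear and -0.01 and 0.71 in control samples. The remaining control array had no Lif value, so these means say little about how far the groups were apart. Without control replicates 1 and 2 the change was 0.57, and without control replicates 5 and 6 it was 1.29.

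Hbegf, the EGF receptor ligand, was measured in all 6 shear samples and in none of the controls. Probe 22019 gave log2 signals of 2.29, 2.58, 2.85, 1.66, 2.15 and 2.81 in shear replicates 1 to 6, with a mean of 2.39 ± 0.45 (SD). Its net fluorescence there was 1296 to 7134. The lowest spot that was given a value in the same block had a fluorescence of 34 to 48 in control samples, and the block medians there were 346 to 486. In that block 176 to 287 of the 598 features had no value in control samples, and 158 to 231 in shear samples. Why a spot was left empty is not given in the sources used here, and no fold change was computed.

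Of the 25498 features with any value, 43 (0.169%) had a value in every shear sample and in no control sample, and 7 had the opposite pattern. Hbegf gave the strongest spot signal of the 43, with a mean of 2.39, against 0.36 for the next. The median of the 43 means was -1.52, and 3 of them were above 0. Spot signals depend on the probe too, so this order is not one of transcript levels.

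**Figure D2:**
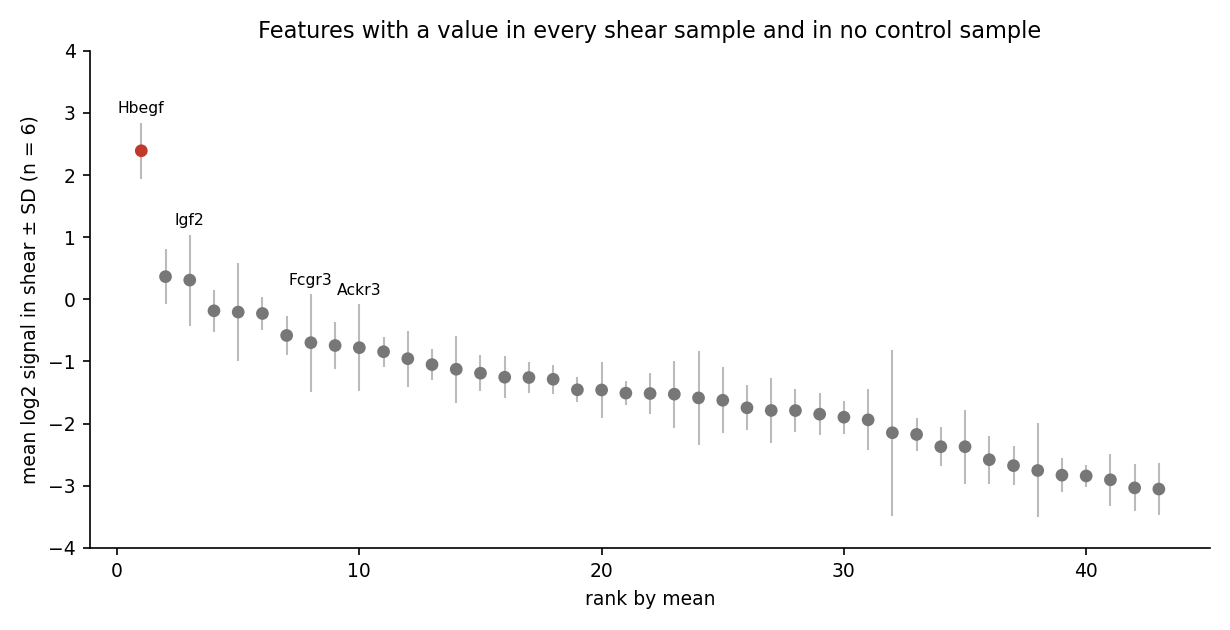
Mean log2 signal in shear samples ± SD (y axis, n = 6) of the 43 features with a value in every shear sample and in no control sample, ranked by mean (x axis), with Hbegf in red. Hbegf stands at 2.39 and the next feature at 0.36.

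Missing values often took both dyes of an array at once. Among 20532 features with 6 shear values, 3.40% of the pairings of a feature with a control array lacked both dyes and 3.23% lacked 1. Among the 2019 of these with a shear mean at or above that of Hbegf, 39 of 6057 pairings (0.644%) lacked both dyes and 9 lacked 1. Hbegf is itself counted in the 2019 and the 39, and was the only 1 of the 2019 without any control value. Of the 2019, 1982 had a value in every control sample. All were required to have 6 shear values, so gaps could fall in control samples alone. Whether the control spots of Hbegf were dim or were set aside for another reason was not tested.

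The other named genes of the 43 were of many kinds. They included Igf2, a growth factor of the insulin family (0.31 ± 0.73, SD, n = 6), Fcgr3, an Fc receptor (-0.70 ± 0.79), and Ackr3, an atypical chemokine receptor that binds Cxcl12 (-0.78 ± 0.70). The circadian repressor Cry1 was at -1.63 ± 0.53 and Phlda1 at -2.83 ± 0.28. Igf2, Fcgr3 and Cry1 each had at least 1 other probe with values, unlike Hbegf, Ackr3 and Phlda1.

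Nfkbia, the inhibitor induced by NF-kB, lay higher under shear on both probes with values. Probe 9455 gave 0.98, 1.93, 0.89, 0.66, 0.76 and 0.72 in shear replicates 1 to 6, against 0.18, -0.03, -0.18, -0.69, 0.29 and 0.03 in control replicates 1 to 6. All shear values were above all control values, by 0.37 at the nearest. The means were 0.99 ± 0.48 in shear and -0.06 ± 0.35 in control samples (SD, n = 6 each), and the log2 change was 1.05 ± 0.39 (SE), or 2.08-fold.

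Probe 19234 gave -0.30, 0.61, 0.15, -0.09, 0.06 and -0.01 in shear replicates 1 to 6, against -0.40, -0.71, -0.99, -1.21, -0.07 and -0.57 in control replicates 1 to 6. Here 2 shear samples lay at or below the highest control sample, control replicate 5. The change was 0.73 ± 0.37 (SE), or 1.65-fold. Shear replicate 2 was the highest sample on both probes and control replicate 4 the lowest. Without shear replicates 1 and 2 the change of probe 9455 was 0.82, and without control replicates 3 and 4 that of probe 19234 was 0.50.

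Of the 5 fitted probes, 3 thus had groups that did not overlap, the 2 of Csf1 and 1 of Nfkbia. Over all features fitted, 6.26% had every shear value above every control value and 1.68% the reverse, and of those with all 12 values 6.52% had the first pattern. The median change of all features was 0.10, with 5% of features below -0.67 and 5% above 0.95. The 2 Csf1 probes lay far above that upper bound, Nfkbia probe 9455 just above it, Lif just below it, and Nfkbia probe 19234 lower still, with 2089 features at or above its change. In bulk RNA a change in the share of cells that express a gene and a change in RNA per cell cannot be told apart.

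**Figure D3:**
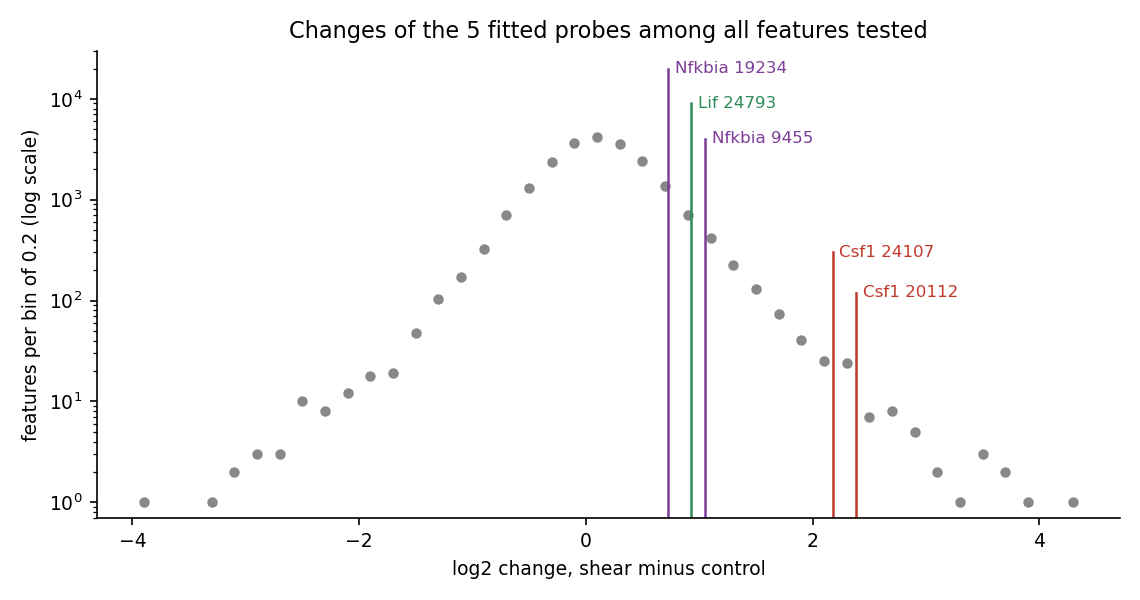
Number of features per bin of log2 change (points, log scale on the y axis) against the log2 change, shear minus control (x axis), with the 5 fitted probes as vertical lines whose heights carry no value. Csf1 lies in the upper tail at 2.18 and 2.39, while Nfkbia and Lif lie between 0.73 and 1.05.

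The dye contrast had no part in the choice of the genes and was tested. None of the 5 probes passed it, with Cy5 minus Cy3 between -0.22 ± 0.20 (SE) for Lif and 0.16 ± 0.14 for Csf1 probe 24107. Adjusted p was 0.446 to 0.857 (limma, Benjamini-Hochberg over all features). Over all features 10.8% passed the dye test.

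Within the groups the genes did not vary as 1 block. With each group's mean removed, the 2 Nfkbia probes correlated at 0.83 over 12 samples (Pearson) and the 2 Csf1 probes at 0.47. Csf1 probe 24107 and Nfkbia probe 9455 gave 0.25, and Csf1 probe 20112 and Nfkbia probe 9455 gave -0.40. Lif correlated with the Csf1 probes at 0.44 and -0.36 over 10 samples. Over the 6 shear samples Hbegf correlated at -0.77 with Csf1 probe 20112, at -0.26 with Csf1 probe 24107 and at 0.29 with Nfkbia probe 9455. These are descriptions of few samples, in which samples of 1 array also share its errors.

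By correlation over all 12 samples, 1 probe of a gene of the same family was among those most like Nfkbia. The described genes were selected on their difference between the groups. Such a ranking, here and for Csf1 and Lif below, therefore favours genes with a like difference and says nothing of shared control. Among 12628 named probes with all 12 values, a probe of Nfkbiz had the highest correlation with Nfkbia probe 19234 (r = 0.95, Pearson, 12 samples) and, after Eif2s2, the second highest with probe 9455 (0.95). Nfkbiz encodes IkB-zeta, a nuclear member of the IkB family that is itself induced by NF-kB. The others named by the rule were Eif2s2 and Ppm1a for probe 9455, and Smad1 and Dnajb4 for probe 19234, all at 0.93 to 0.95. With group means removed, probe 9455 correlated at 0.85 with Nfkbiz, 0.85 with Eif2s2 and 0.86 with Ppm1a. Probe 19234 correlated so at 0.89 with Nfkbiz, 0.86 with Smad1 and 0.87 with Dnajb4. Samples share arrays and groups, which raises all such correlations.

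**Figure D4:**
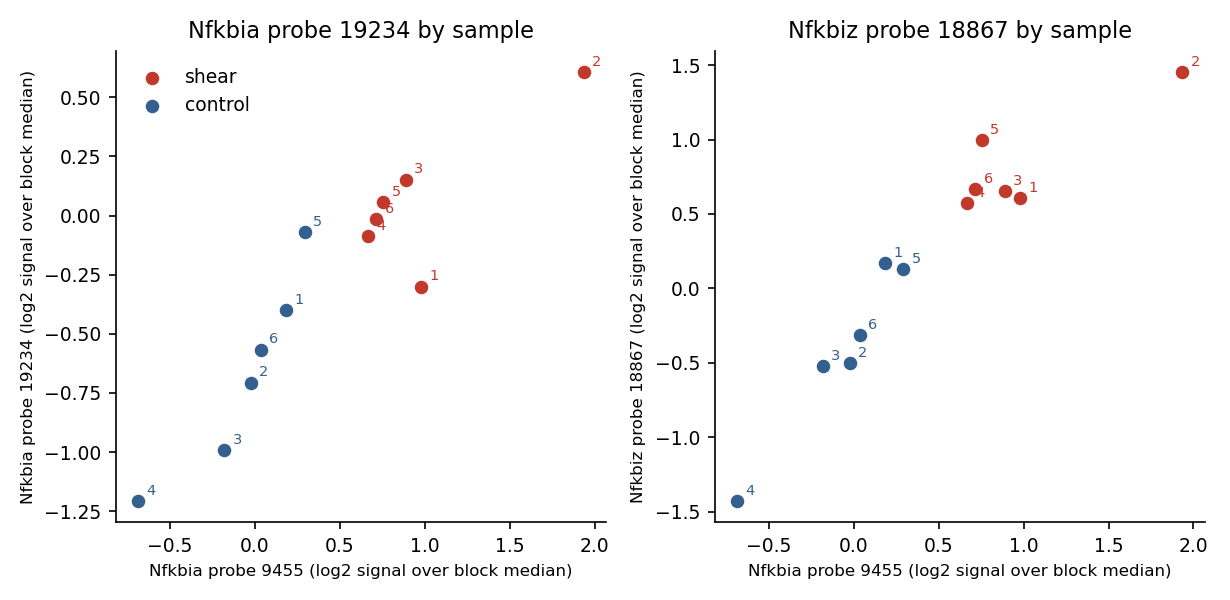
Log2 signal over block median of Nfkbia probe 19234 (left panel, y axis) and Nfkbiz probe 18867 (right panel, y axis) against that of Nfkbia probe 9455 (x axes), 1 point per sample, shear in red and control in blue, with replicate numbers. Shear replicate 2 is the highest and control replicate 4 the lowest sample for all 3 probes.

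Nfkbiz probe 18867 gave 0.61, 1.45, 0.65, 0.57, 1.00 and 0.67 in shear replicates 1 to 6, against 0.17, -0.50, -0.52, -1.43, 0.13 and -0.32 in control replicates 1 to 6. The groups did not overlap, but the change of 1.23 ± 0.44 (SE, n = 6 each) did not pass (adjusted p = 0.195, limma, Benjamini-Hochberg). The 2 other Nfkbiz probes gave changes of -0.43 and 0.02, so the likeness rests on 1 probe of 3.

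For Csf1 the most alike genes differed between its probes. Probe 24107 was nearest to Dkc1 of the box H/ACA ribonucleoproteins, Prdm4 and Calr4, at r = 0.97 to 0.98 (Pearson, 12 samples), and at 0.85 to 0.86 with group means removed. Probe 20112 was nearest to the translation factor Eif1a, Pigf of glycolipid anchor synthesis and the glucose transporter Slc2a1, also at 0.97 to 0.98, but at 0.55, 0.64 and 0.62 with group means removed. Lif was nearest to Ssr1 of the translocon-associated complex, the phosphatase Ptpn21 and Atf6 of the unfolded protein response, at 0.94 to 0.95 over its 10 samples and 0.89 with group means removed.

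The other genes of these pathways were read from 6 lists that held none of the 4 genes. They were written with earlier results of these data known, so a listed gene that passed is no independent finding. The lists named 142 genes, of which 70 were on the array under their symbol and 60 were tested, each by 1 probe. The threshold was an adjusted p of 0.05 (limma, Benjamini-Hochberg over all features). In all 1 of the 60 rose and none fell, or 1.67%, against 1.79% of all named genes, of which 1.6% rose and 0.19% fell. The 60 had a median change of 0.16, and all named genes 0.11. Above 0 were 41 of the 60, against 61.1% of all named genes.

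The gene that rose was Ier3, a target of NF-kB that limits apoptosis. Its log2 signal was 1.14 to 3.88 (median 2.60) in shear and -0.53 to -0.06 (median -0.19) in control samples. The groups did not overlap. The change was 2.82 ± 0.62 (SE, n = 6 each), with adjusted p = 0.0384 (limma, Benjamini-Hochberg), and its other probe also passed, at 2.54. The call was lost in 11 of 28 alternatives, with adjusted p from 9.49e-04 to 0.169 over them.

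None of the other 8 tested NF-kB targets passed, and the list's median was 0.39. Cd44, the hyaluronan receptor, had 3.56 to 4.07 in shear and 2.16 to 3.18 in control samples, without overlap. Its change was 1.04 ± 0.26 (SE), with adjusted p = 0.0608 (limma, Benjamini-Hochberg), and its other tested probe also gave 1.04. Tnfaip2 and the gelatinase Mmp9 were at 0.52 each and the apoptosis inhibitor Bcl2l1 at -0.30. Classical targets such as Il6, Ccl2, Cxcl1, Icam1 and Ptgs2 were not analysed here.

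Of 17 tested genes of the NF-kB machinery none passed, and their median was 0.11. Changes above 0 were found for 12, against 61.1% of all named genes. Next to Nfkbiz, the smallest p-values belonged to Tnip1 (-1.12), which works with A20 to restrain NF-kB, and to Fbxw11 (0.55) and Btrc (-0.45). Fbxw11 and Btrc are the paralogous beta-TrCP subunits that bring phosphorylated IkB-alpha to degradation. Fbxw11 had 1.28 to 1.75 in shear and 0.70 to 1.23 in control samples, without overlap. Btrc had 1.06 to 1.95 in shear and 1.66 to 2.18 in control samples, with overlap. Rela, the NF-kB subunit that IkB-alpha binds, was at 0.45 ± 0.29 (SE), with adjusted p = 0.525 (limma, Benjamini-Hochberg).

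Of 14 tested genes of the interleukin-6 and gp130 family and its JAK and STAT pathway none passed, and their median was 0.07. Changes above 0 were found for 7, against 61.1% of all named genes. Lifr, the receptor of Lif, had -2.87 to -2.44 in 4 shear samples and -1.89 to -1.42 in 5 control samples, without overlap. The 5th percentile of all values was -2.87 to -2.30 in the shear samples, so Lifr lay near the floor there. The change of Lifr was -1.01 ± 0.25 (SE), with adjusted p = 0.0782 (limma, Benjamini-Hochberg). Stat3, the main transcription factor downstream, had 2.27 to 3.04 in shear and 1.32 to 1.82 in control samples, also without overlap. The change of Stat3 was 1.14 ± 0.29 (SE), with adjusted p = 0.0684 (limma, Benjamini-Hochberg), while its other tested probe gave 0.33. Pias3, an inhibitor of Stat3, was at -0.68, the kinase Tyk2 at -0.93, the feedback inhibitor Socs3 at 0.43 and Il6st at 0.20, with -0.23 on its other tested probe.

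Of 14 tested genes around the EGF family none passed, and their median was 0.25. Changes above 0 were found for 12, against 61.1% of all named genes. Errfi1, an inhibitor that EGF receptor signalling induces, had 0.51 to 2.63 in shear and -0.58 to 0.38 in 4 control samples, without overlap. Its change was 1.95 ± 0.51 (SE), with adjusted p = 0.0847 (limma, Benjamini-Hochberg). It had, as Lif did, values in 4 control samples only. The EGF receptor gene Egfr was at 0.10 ± 0.28 (SE) on its chosen probe and 0.00 on the other. Of the metalloproteinases, Adam12 was at 1.01 and Adam17, which can shed Hbegf, at -0.69, with 0.51 on another Adam17 probe. Cd9, a tetraspanin that binds membrane-anchored Hbegf, was at 0.56, Erbb3 at 0.64 and the ligand Tgfa at 0.35.

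Of the cytokines and receptors nearest to Csf1, Kit (0.42) and its ligand Kitl (-0.07) were tested and did not pass. The receptor gene Csf1r was not analysed here. The 5 tested signals from osteoblasts to osteoclasts and their precursors did not pass either. They were Efnb2 (1.13 ± 0.78 SE), Sema3a (0.58), Sema4d (0.16), Sfrp1 (0.06) and Cxcl12 (-0.19). Efnb2 spread widely, from 2.92 to 6.21 in shear and from 1.62 to 5.18 in control samples. Its change ran from 0.16 to 2.12 over the alternatives. Tnfsf11 and Tnfrsf11b, the ligand and the decoy receptor that act beside Csf1 on osteoclasts, were not analysed here.

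**Figure D5:**
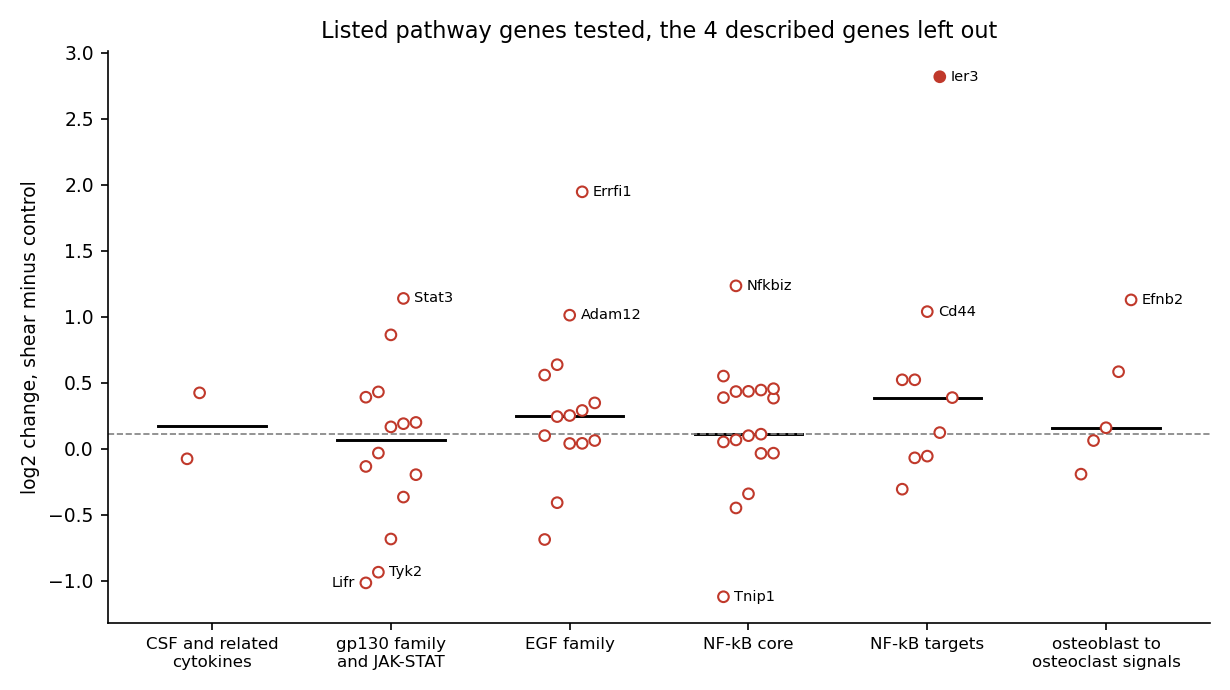
Log2 change, shear minus control (y axis), of each tested gene of the 6 lists (x axis), with filled points for genes that passed, black bars for list medians and a dashed line for the median of all named genes. Ier3 at 2.82 is the gene that passed, and Errfi1, Nfkbiz and Stat3 follow below it.

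The cells were also read from lists of cell type markers, chosen with earlier results of these data known. Of 16 osteoblast markers 9 were on the array, and the summed signal of the 7 with all values was 82.8 to 188.8 block medians in shear and 70.0 to 173.3 in control samples. Among the 8 osteoblast markers tested 1 rose and 1 fell, against 1.6% and 0.19% of all named genes. Lox, the collagen cross-linking enzyme, rose (2.10 ± 0.41 SE, adjusted p = 0.0219, limma, Benjamini-Hochberg), a call lost in 5 of 28 alternatives. Dlx5, a homeodomain factor of osteoblasts, fell (-0.97 ± 0.23 SE, adjusted p = 0.0479, limma, Benjamini-Hochberg), a call lost in 22 of the 28. The markers Runx2, Sp7, Bglap and Ibsp were not analysed here. Of 19 markers of macrophages and osteoclasts 12 were on the array, among which Ptprc and Acp5 had no value in any sample. The summed signal of the 5 with all values was 9.52 to 18.3 in shear and 10.6 to 15.3 in control samples, and none of the 8 tested passed. The highest change among them was 0.91 (Laptm5). Of the 5 summed, Itgam (2.04), Tyrobp (1.77), Cd53 (1.75) and Fcer1g (1.34) had mean log2 signals above the block median in shear samples. Their means were above it in control samples too. Cd68 lay below it in both groups, at -0.63 in shear samples, and so did the osteoblast marker Alpl, at -0.95. The sums cover different numbers of genes, so they do not rank the cell types. Whether cells of other types were present was not tested. Of 10 endothelial markers 7 were on the array, with sums over 4 of them of 5.36 to 7.51 in shear and 4.08 to 7.14 in control samples, and none of the 6 tested passed. The reference genes Gapdh (-0.26), Actb (0.53) and Gja1 (-0.06) did not pass.

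The number of features with a value was 18434 to 23790 per sample and the median net fluorescence 243 to 868. The lowest number was that of control replicate 4. Over all features 354 passed (1.62%), 310 higher (1.42%) and 44 lower (0.201%) in shear. Pearson correlations were 0.954 to 0.981 between samples of the same array and 0.873 to 0.915 between other samples of a group. Each array held 1 group, so array and group effects rest on 3 arrays against 3.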

How the data were processed

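Total RNA of 12 MC3T3-E1 samples was measured on 6 spotted 2-colour arrays. Each deposited number is a log2 value. In 576 of 576 combinations of block and sample, 1 scale turned them into whole-number fluorescence (within 0.01). Not given in the sources used here were the scanner, the background correction and the treatment of empty spots. Precision is limited by the few arrays.

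In the platform annotation 18511 probes had 1 symbol, 937 more than 1 and 9256 no symbol. Of the 18511, 18267 had an Entrez number found among the RefSeq genes. Their symbol was taken from there, whether or not it differed. Probes measured in 4 or more samples of both groups were fitted with limma 3.58.1 in R 4.3.3 (tables read with data.table, version 1.17.8), with fixed terms for group and dye and a random block for the inferred array (correlation 0.727). P-values were adjusted by Benjamini-Hochberg over 21883 features, with a threshold of 0.05. Tables and plots were made in pandas 2.3.3, numpy 2.4.6 and matplotlib 3.10.9 on Python 3.11.15. The fit was tested on simulated data.

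A listed gene was read from its probe measured in most samples, then with the highest mean. The text names all probes of the 4 genes, and of each list the members that passed and up to 4 others by smallest p. It names the 3 genes most alike each probe by Pearson correlation, genes among the features with values in shear samples alone (up to 20 by mean) and 3 reference genes. Phlda1, which is outside those 20, and further list members (Egfr, Adam17, Tgfa, Socs3, Il6st, Rela and Sfrp1) were added after their values were seen. The markers Itgam, Cd53, Alpl and Col1a2 are outside these rules as well. The 4 genes and the lists were chosen with earlier results of these data known. The alternatives were other scalings, filters, probe choices and model terms, and leaving out each sample or array.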

Additional observations from a re-analysis of the deposited data

Results flagged for a closer look

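Of 91 groups of samples examined, 4 had 1 sample far from the rest, judged by its distance to the next sample as a ratio of the range. About 1 group in 20 would show this by chance if samples were independent, and those of an array were correlated. Lif was low in shear replicate 5, at 0.35 against 1.23 in the next sample (ratio 0.630). Nfkbia probe 9455 was high in shear replicate 2, at 1.93 against 0.98 (ratio 0.753). In control replicate 4, the sample with the fewest values, Sema4d was low at -2.27 against -1.65 (ratio 0.641) and Col1a1 at -0.0372 against 1.63 (ratio 0.627).

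Hbegf probe 22019 was outside the fit, since it had no control value, and had a mean log2 signal of 2.39 over the 6 shear samples.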

How the results depend on the processing

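Over 28 alternatives (27 for Lif and for the second probes of Csf1 and Nfkbia) no change of the 5 fitted probes turned its sign or moved by more than the SD between replicates. Csf1 ranged from 1.97 to 2.46 on probe 24107 and from 2.17 to 2.50 on probe 20112, Lif from 0.57 to 1.29, and Nfkbia from 0.82 to 1.21 on probe 9455 and from 0.50 to 0.90 on probe 19234.

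Of all features 354 passed. The count was 235 with quantile normalization, 232 with 1 probe per gene, 106 with each array averaged, 558 with no dye term and 2664 with no array block. It was 170 to 345 with 1 sample left out, falling most without control replicate 3, and 190, 69, 104, 226 and 177 without shear replicates 1 and 2, 3 and 4, or 5 and 6, or control replicates 1 and 2 or 5 and 6. Centred on the features measured in all samples 274 passed higher and 132 lower, and with cyclic loess 287 and 123. With a replicate block it was 2240, but same-numbered samples shared only a number, with deviations correlated at -0.09 to 0.12.

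The dye test passed 2359 features. It passed 834 centred on features measured in all samples, 906 with cyclic loess, 1500 with quantile normalization, none with no array block, and 126 to 2197 with 1 sample left out. It passed 276, 51 and 339 without shear replicates 1 and 2, 3 and 4, or 5 and 6, and 1004, 1022 and 102 without the same pairs of control replicates.

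Of the 60 listed genes 1 passed. It was 2 when centred on features measured in all samples and with values in all 6 samples of each group, 5 with no dye term, 12 with no array block and 9 with the replicate block. With 1 sample left out it was 0 to 2, and 0 without each array of control samples, as Ier3 lost its call. Features with values in at least 5 shear samples and at most 1 control sample were 129 instead of 43.

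Small changes turned sign for Kitl (0.0362 with quantile normalization, -0.118 to 0.0022 with 1 sample left out, 0.0166 without shear replicates 3 and 4, 0.076 and 0.0514 without control replicates 1 and 2 or 5 and 6). Without control replicates 3 and 4 Sema4d was at -0.0209, Cd68 at -0.0354, Gapdh at 0.0471 and Gja1 at 0.0964. Gja1 was at -0.137 to 0.0206 with 1 sample left out and at 0.11 and 0.0548 without shear replicates 3 and 4 or 5 and 6. Col1a1 was at 0.34 without shear replicates 3 and 4, 0.0543 without control replicates 1 and 2 and -0.57 to 0.0155 with 1 sample left out. Sparc was at -0.024 when centred on features measured in all samples, -0.0718 with cyclic loess and -0.0996 to 0.334 with 1 sample left out. The cause was not tested.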
